A study of Mus musculus with 3 samples.

Results

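The cytosolic heat shock and co-chaperone genes described here are 73 of the 23183 genes listed in each lung library, and 73 of the 14145 genes with at least 1 FPKM in any of the 3 libraries. FPKM scale the fragments of a gene by transcript length and by the size of the library. Members were chosen by gene symbol alone (HSP70 and HSP110, small heat shock protein, HSP90, HSP60 and HSP10, TRiC, J-protein and BAG names) and by a level of at least 1 FPKM in any library. The pattern matched 86 symbols, of which Hspa5, Dnajb9, Dnajb11 and Dnajc3 of the endoplasmic reticulum were left out by name, and 9 of the remaining 82 stayed below 1 FPKM in every library. Of these 9, Dnajb7, Dnajb8 and Dnajc5g were listed at 0 in every library, and Hspb9 (at most 0.92 FPKM) and Dnajc6 (at most 0.927 FPKM) lay just outside the limit. Hspa1l (at most 1.016 FPKM) and Dnajb3 (at most 1.26 FPKM) lay just inside it. The members comprised 2 HSP90, 10 HSP70, 3 HSP110, 2 mitochondrial chaperonin, 7 TRiC, 7 small heat shock, 36 J-protein and 6 BAG genes. The name "cytosolic" does not hold for all of them. Hspa9, Hspd1, Hspe1, Dnaja3, Dnajc11, Dnajc15, Dnajc19 and Dnajc30 are known to act in mitochondria, Hspa13, Dnajb12, Dnajb14, Dnajc1 and Dnajc10 in the endoplasmic reticulum, and Hspb11 in cilia.

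RNA from lungs of female BALB/c mice was sequenced in 3 libraries, 1 per group. The OVA+PM10 mice were sensitised to ovalbumin (OVA, an egg-white protein used to model allergic asthma) with aluminium hydroxide, challenged with it through the nose on days 21, 22 and 23, and also given PM10 (a certified reference dust) through the nose 4 times over 2 weeks. The PM10 mice received the dust, and the control mice are labelled control with no vehicle named. The labels give 5 mice per group, an age of 10 weeks in one field and of 5 to 6 weeks in another, and dust doses of 100 or 200 µg without naming the dose sequenced or whether RNA of several mice was pooled. No group given OVA alone was analysed here, so the parts of OVA and dust in the OVA+PM10 library cannot be told apart.

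Heat shock proteins hold unfolded proteins, prevent their clumping and help them fold. HSP70 works in cycles that J-proteins start by delivering a client and stimulating ATP hydrolysis, and that nucleotide exchange factors (HSP110 and most BAG proteins) end by releasing ADP. HSP90 takes over signalling proteins such as steroid receptors and kinases, TRiC folds actin and tubulin inside a closed ring, and the small heat shock proteins bind clients without ATP. In stressed cells heat shock factor 1 (HSF1) binds heat shock elements, arrays of the letters GAA and TTC in alternating orientation, and raises transcription of the inducible members. In lung, airway cells and macrophages are known to induce them on exposure to oxidants and particles.

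The promoters of 5 members on which the results below turn are printed because they carry these letters. They run from 250 bases before to 50 bases after the start site (RefSeq, GRCm38.p6), 5′ to 3′ on the gene's strand, with every GAANNTTC or TTCNNGAA in capitals. Hspa1a lies at chr17:34972107-34972406 and Hspa1b at chr17:34959189-34959488, both on the minus strand. Hsph1 lies at chr5:149636287-149636586 on the minus strand, Hspe1 at chr1:55087898-55088197 and Hspb1 at chr5:135887669-135887968, both on the plus strand.
Hspa1a: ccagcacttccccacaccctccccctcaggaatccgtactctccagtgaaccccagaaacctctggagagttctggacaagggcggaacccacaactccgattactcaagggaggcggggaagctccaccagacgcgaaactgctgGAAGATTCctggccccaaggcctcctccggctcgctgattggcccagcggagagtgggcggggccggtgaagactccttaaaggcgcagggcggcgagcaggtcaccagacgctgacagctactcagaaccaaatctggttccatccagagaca
Hspa1b: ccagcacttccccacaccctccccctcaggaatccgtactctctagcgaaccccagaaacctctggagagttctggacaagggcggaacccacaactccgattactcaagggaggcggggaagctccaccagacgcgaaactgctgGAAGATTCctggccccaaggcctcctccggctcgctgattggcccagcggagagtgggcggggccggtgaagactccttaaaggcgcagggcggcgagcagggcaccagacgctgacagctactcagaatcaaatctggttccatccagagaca
Hsph1: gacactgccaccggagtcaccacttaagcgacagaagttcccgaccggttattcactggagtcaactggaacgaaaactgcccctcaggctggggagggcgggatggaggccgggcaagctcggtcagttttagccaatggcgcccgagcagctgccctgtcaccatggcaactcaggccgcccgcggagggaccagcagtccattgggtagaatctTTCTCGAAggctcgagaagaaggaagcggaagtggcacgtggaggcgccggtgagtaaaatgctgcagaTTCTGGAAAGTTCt
Hspe1: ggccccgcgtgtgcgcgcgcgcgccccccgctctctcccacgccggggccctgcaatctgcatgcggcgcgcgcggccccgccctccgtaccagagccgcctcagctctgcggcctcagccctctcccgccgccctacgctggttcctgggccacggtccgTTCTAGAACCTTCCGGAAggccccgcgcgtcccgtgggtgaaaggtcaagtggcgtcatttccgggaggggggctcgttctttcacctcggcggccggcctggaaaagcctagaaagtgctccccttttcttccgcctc
Hspb1: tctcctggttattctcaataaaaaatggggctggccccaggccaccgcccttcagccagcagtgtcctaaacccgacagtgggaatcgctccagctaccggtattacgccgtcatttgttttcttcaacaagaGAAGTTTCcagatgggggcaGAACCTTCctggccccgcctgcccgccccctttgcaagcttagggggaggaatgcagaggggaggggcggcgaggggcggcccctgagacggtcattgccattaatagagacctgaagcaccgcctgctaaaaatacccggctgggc
The motifs of Hspa1a and Hspa1b began at the same place, -104 relative to the start site, and these promoters were identical at 296 of 300 bases. Hspe1 carried 3 overlapping motifs starting at -89, -84 and -79, and Hspb1 carried separate ones at -117 and -97. Hsph1 has 2 promoter entries, of which the first is printed. It carried 1 motif at -33 and overlapping ones at 37 and 42, after the start site. Of the 73 members, 59 had a promoter entry. Hspa8, Hsp90aa1 and Cct4 were among those without one, and Dnajb1 had an entry with neither motif. GAANNTTC, which reads the same on both strands, stood in 15 of the 59 members (25.4%) and in 9.04% of 27025 genes with an entry. TTCNNGAA, also its own reverse complement, stood in 8 (13.6%) and in 9.60% of those genes. The 3-unit forms GAANNTTCNNGAA or TTCNNGAANNTTC, which contain both shorter motifs, stood in Dnajb6, Hspd1, Hspe1 and Hsph1, 6.78% of the members and 0.662% of the genes. The matches of Hspe1 and of 1 of the 2 Hspd1 entries lie on the same bases, since these neighbours on opposite strands have annotated start sites 111 bases apart. A match is a description of letters and not of binding.

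Depth was estimated from the steps between low values, where 1 read on a transcript of 1 kb was worth 0.0662, 0.0765 and 0.0512 FPKM in the OVA+PM10, PM10 and control libraries, so the control library was the deepest. With 1 library per group replicate spread could not be measured and p-values are not given, and each log2 ratio of (FPKM + 1) compares libraries and not conditions. Every 2-fold statement below uses this ratio unless another setting is named. The added 1 FPKM narrows differences between low values. The 3 comparisons also share libraries and are not independent of each other. Lung identity was clear from Sftpc of type 2 cells (24439, 56646 and 22645 FPKM in the same order) and Scgb1a1 of club cells (65013, 50391 and 42979 FPKM). The control library also held markers of other tissues at high levels. Markers of skeletal muscle (9 of 9 at 1 FPKM or more) summed to 3873 FPKM there, against 31.6 in the OVA+PM10 library (4 of 9, with Myh4 and Myh2 at 0) and 22.0 in the PM10 library (4 of 9, with Acta1 and Myh4 at 0). Squamous epithelium markers summed to 2.34 FPKM in the OVA+PM10 library, to 0.661 FPKM in the PM10 library and to 4648 FPKM in the control library, with 0, 0 and 8 of 8 genes at 1 FPKM or more. Ratios are read against the median gene, which lay near 0 in every comparison. Scaling the libraries to equal summed FPKM would move the median of all genes by -0.57 (OVA+PM10 to control), -1.03 (PM10 to control) and 0.46 (OVA+PM10 to PM10), and a member with a smaller ratio of the opposite sign would change sides. In bulk tissue, fewer cells of a type and less RNA per cell cannot be told apart.

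In the PM10 library, Hspa8, Hsp90aa1, Hspe1 and the TRiC subunits Cct4 and Cct5 were at least 2-fold higher than in control. The inducible HSP70 genes Hspa1a and Hspa1b had their highest values in the OVA+PM10 library. The small heat shock genes Hspb3, Hspb6 and Hspb7 were at least 2-fold lower than in control in both exposed libraries. At least 2-fold higher in OVA+PM10 than in control were 6 of 73 members, and 6 were at least 2-fold lower (8.22% each). Among all genes with at least 1 FPKM, 9.76% were higher and 8.51% lower, close to the members' shares. The median log2 ratio was 0.05 for the members and -0.0011 for all genes. For PM10 against control, 12 members were higher (16.4%) and 3 lower (4.11%), beside 13.2% and 13.5% of all genes. The members' median was 0.18 and that of all genes 0.0084. For OVA+PM10 against PM10, 6 members were higher (8.22%) and 2 lower (2.74%), beside 11.3% and 8.62% of all genes, with medians of -0.28 and -0.01. In all, 24 members differed 2-fold in some comparison and 49 in none, and the same count over all genes was not made. The highest of the 3 values was in the PM10 library for 40 members (54.8%, beside 38.1% of all genes), in the OVA+PM10 library for 14 (19.2%, beside 26.8%) and in the control library for 19 (26.0%, beside 35.1%). Summed FPKM of the members came to 4338 in the OVA+PM10, 6178 in the PM10 and 3734 in the control library, or 0.507%, 0.478% and 0.683% of each library's total.

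The counts depend on where the threshold and the scale are set, and the share of all genes moves with them. With equal sums, 4.56% of all genes lay 2-fold or more above control in OVA+PM10 and 24.5% lay below it, 1.85% above and 50.9% below control in PM10, and 23.5% above and 2.41% below PM10 in OVA+PM10. The members' counts then were 3 and 12, 1 and 33, and 15 and 0 in the same order. At 1.5-fold, 13 members were higher and 10 lower in OVA+PM10 than in control, beside 20.2% and 17.3% of all genes. For PM10 against control these counts were 25 and 14, beside 25.5% and 24.7%, and for OVA+PM10 against PM10 they were 15 and 15, beside 21.8% and 21.5%. With a pseudocount of 0.25, 15 members were higher and 6 lower in PM10 than in control, beside 15.6% and 17.4% of all genes. Median-ratio scaling left 8 members higher in PM10 than in control, beside 11.5% of all genes, and took Hspa8 (0.94), Hsp90aa1 (0.98), Cct5 (0.98) and Dnajc2 (0.91) below 2-fold there and Hspb11 (0.98) below it in OVA+PM10. With a pseudocount of 5, 2 members were higher in OVA+PM10 than in PM10, beside 3.37%.

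**Figure D1:**
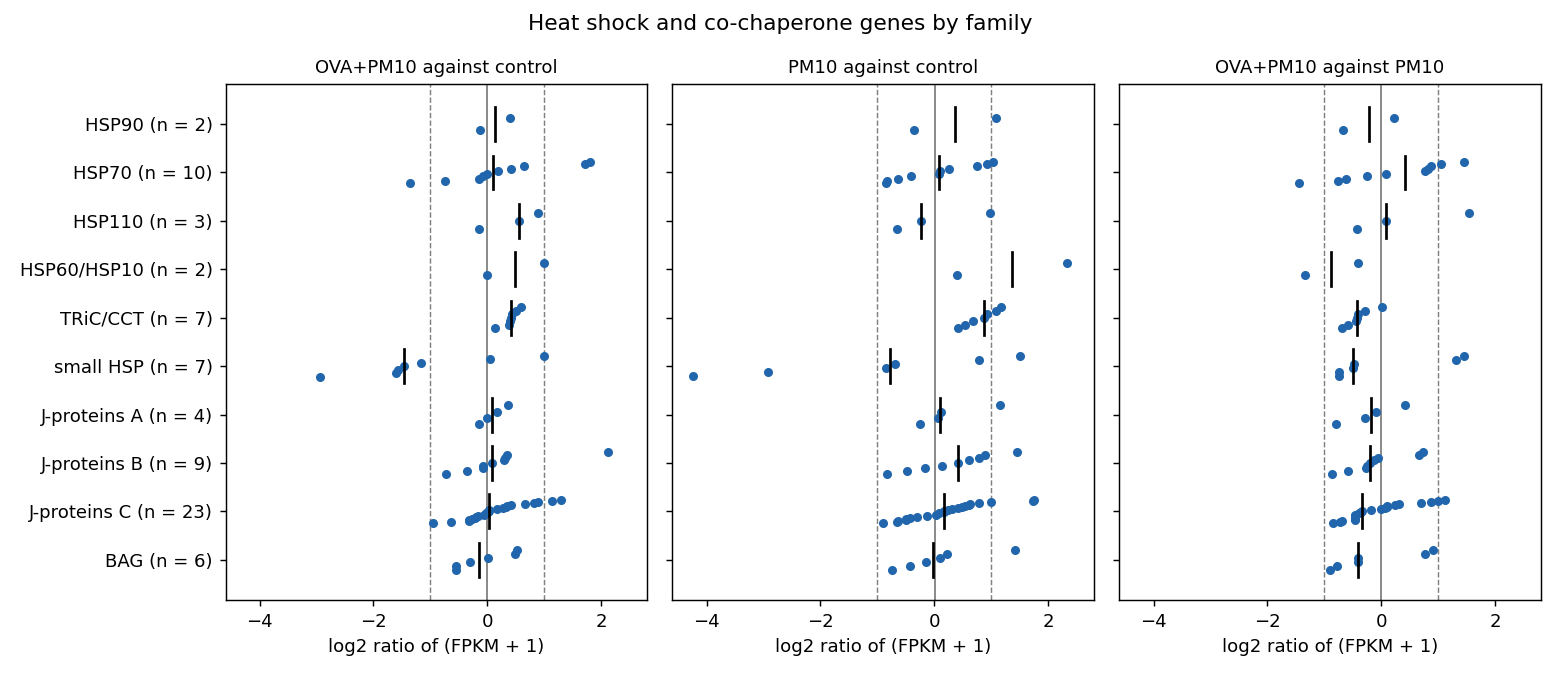
Log2 ratio of (FPKM + 1) of every member (points) by family for the 3 comparisons; black bars are family medians, the grey line is the median of all genes and dashed lines mark 2-fold. TRiC subunits lie close together (0.41 to 1.17 for PM10 against control), while small heat shock genes reach -4.25. Hspb3 is left out where it is compared with the PM10 library, in which it was listed at 0.

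The HSP70 family was led by Hspa8, the constitutive cytosolic HSP70 (HSC70), which was by far the most abundant member. It stood at 1183 FPKM in OVA+PM10 and 1826 FPKM in PM10, against 888 FPKM in control. The control value was the lowest, with a log2 ratio of 0.41 for OVA+PM10 and 1.04 for PM10 against control. Removing the trend of ratios over transcript length left 1.02, median-ratio scaling gave 0.94, below 2-fold, and scaling to equal sums turned the PM10 ratio to -0.20. Hspa9 (mortalin), its mitochondrial counterpart and a motor of protein import, had 44.8 FPKM in OVA+PM10, 76.5 FPKM in PM10 and 44.8 FPKM in control, so that PM10 alone stood apart (0.76 against control). Hspa14, which works with the J-protein Dnajc2 on nascent chains at the ribosome, was nearly level at 16.9, 20.3 and 18.9 FPKM in the same order. Hspa13, a microsomal HSP70, had 15.1 FPKM in OVA+PM10, 8.06 FPKM in PM10 and 13.1 FPKM in control.

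The inducible genes Hspa1a and Hspa1b, whose near-identical promoters are printed above, showed another order. Hspa1a had 10.9 FPKM in OVA+PM10 and 5.46 FPKM in PM10, against 2.38 FPKM in control. Hspa1b had 16.1 FPKM in OVA+PM10, 5.22 FPKM in PM10 and 4.19 FPKM in control. OVA+PM10 was the highest library for both, with log2 ratios of 1.81 and 1.72 against control and of 0.88 and 1.46 against PM10, whereas PM10 against control came to 0.93 and 0.26. With the length trend removed the ratios to control were 1.71 and 1.65 for OVA+PM10. Their coding sequences (1926 and 1929 bases) matched at 99.4% of positions with 8 mismatches, so the division of reads between them is uncertain, and the sources used here do not state how reads with several matches were handled. As a share of Hspa8 in the same library, a measure that scaling cannot change, Hspa1a stood at 0.919% in OVA+PM10, 0.299% in PM10 and 0.268% in control, and Hspa1b at 1.36%, 0.286% and 0.472%. Of 12 immediate early genes, which handling and stress also induce, OVA+PM10 had 0 at 2-fold or more above control and 1 at 2-fold or more below it, and their sum was 209 FPKM in OVA+PM10, 337 in PM10 and 269 in control. Their part in the HSP70 values was not tested.

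The remaining HSP70 genes included cell-type-restricted ones. Hspa2, best known from spermatogenesis, had 11.5 FPKM in OVA+PM10, 5.04 FPKM in PM10 and 7.03 FPKM in control, at least 2-fold higher in OVA+PM10 than in PM10 (1.05). Hspa12b, an atypical member expressed mainly in endothelial cells, had 8.62 FPKM in OVA+PM10, against 25.1 FPKM in PM10 and 23.6 FPKM in control. No other HSP70 gene was 2-fold lower in OVA+PM10, and the ratios of Hspa12b were -1.36 to control and -1.44 to PM10, or -1.37 and -1.48 without the length trend. Endothelial markers were also at least 2-fold lower in OVA+PM10 than in control for 2 of 3 genes (Pecam1 139 and 308 FPKM, Cdh5 78.8 and 265 FPKM), while Cldn5 had 221 and 265 FPKM. Summed, these 3 markers came to 439 FPKM in OVA+PM10, 1154 in PM10 and 838 in control. In PM10, Cldn5 had 838.3 FPKM, whereas Pecam1 (221 FPKM) and Cdh5 (94.9 FPKM) were below their control values. The part of these markers in the Hspa12b value was not tested. Hspa12a (1.37, 1.23 and 2.98 FPKM) and Hspa1l (0.904, 0.123 and 1.016 FPKM) were low in all libraries, in the order OVA+PM10, PM10, control.

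The HSP110 genes, which exchange nucleotide on HSP70, did not share an order. Hsph1, the inducible HSP105 whose promoter with 3 motifs is printed above, had 27.3 FPKM in OVA+PM10 and 36.9 FPKM in PM10, against 18.2 FPKM in control. Its log2 ratio of (FPKM + 1) for PM10 against control, 0.98, was just short of 2-fold. Without the added 1 the FPKM differ by slightly more than 2-fold. With the length trend removed the ratio was 1.23. Hspa4, the constitutive HSP110, was nearly level at 37.9 FPKM in OVA+PM10, 35.6 FPKM in PM10 and 42.0 FPKM in control. Hspa4l, whose loss in mice impairs male fertility, had 28.8 FPKM in OVA+PM10, 9.24 FPKM in PM10 and 15.2 FPKM in control, a log2 ratio of 1.54 between OVA+PM10 and PM10. Hsph1 amounted to 72.1% of Hspa4 in OVA+PM10, 104% in PM10 and 43.5% in control.

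The HSP90 paralogues went opposite ways on the deposited scale. Hsp90aa1, the stress-inducible form, had 218 FPKM in OVA+PM10 and 347 FPKM in PM10, against 164 FPKM in control. Hsp90ab1, the constitutive form, had 413 FPKM in OVA+PM10 and 352 FPKM in PM10, against 450.4 FPKM in control. The order of the libraries was thus reversed between them, and within each library Hsp90aa1 amounted to 52.8% of Hsp90ab1 in OVA+PM10, 98.5% in PM10 and 36.4% in control. The PM10 against control ratio of Hsp90aa1 was 1.08 as deposited, 1.07 without the length trend and -0.16 with equal sums. That of Hsp90ab1 was -0.35 as deposited and -1.59 with equal sums. With equal sums both paralogues thus lay below control in PM10, as they did in OVA+PM10. Coding sequences of the paralogues matched at 75.4% of positions, far less than Hspa1a and Hspa1b.

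**Figure D2:**
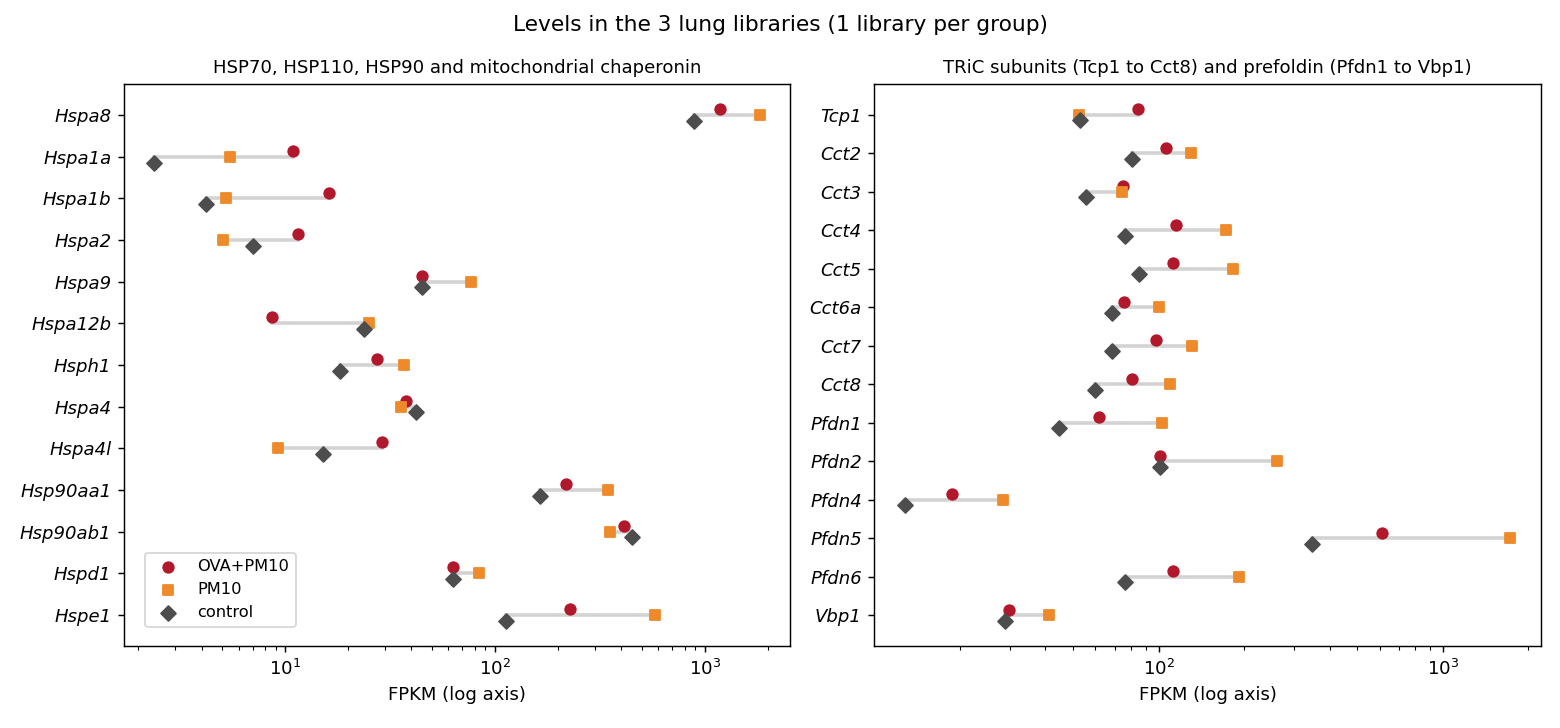
FPKM (log axis) in the OVA+PM10, PM10 and control libraries for HSP70, HSP110, HSP90 and mitochondrial chaperonin genes (left) and for TRiC and prefoldin subunits (right); each symbol is 1 library and grey lines span the 3 values. PM10 is rightmost for Hspa8, Hsp90aa1, Hspe1 and 6 of 7 Cct genes, OVA+PM10 for Hspa1a, Hspa1b, Hspa2 and Hspa4l.

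The mitochondrial chaperonin pair is encoded by neighbours on opposite strands of chromosome 1, and 1 of the 2 Hspd1 promoter entries holds the motifs printed for Hspe1. Hspe1 (HSP10), the lid of the folding chamber, had 227 FPKM in OVA+PM10 and 578 FPKM in PM10, against 113 FPKM in control. Hspd1 (HSP60), which forms the chamber, had 63.1 FPKM in OVA+PM10 and 83.9 FPKM in PM10, against 63.4 FPKM in control. Hspe1 had the highest PM10 against control ratio of all members (2.34), while that of Hspd1 was 0.40. Hspe1 amounted to 3.59 times Hspd1 in OVA+PM10, 6.88 times in PM10 and 1.79 times in control. Their longest annotated transcripts have 964 and 2423 bases, and with the length trend removed the PM10 ratio of Hspe1 was 1.29 and that of Hspd1 0.20. The genes share 112 exonic bases on opposite strands, and the sources used here do not state whether counting used strand.

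Subunits of TRiC, the ring that folds actin and tubulin, had similar ratios in each comparison. Cct4 had 115 FPKM in OVA+PM10 and 173 FPKM in PM10, against 76.2 FPKM in control. Cct5 had 112 FPKM in OVA+PM10 and 182 FPKM in PM10, against 85.6 FPKM in control. These were the 2 of 7 subunits at least 2-fold higher in PM10 than in control, and the order PM10, OVA+PM10, control also held for Cct2 (106 FPKM in OVA+PM10, 129.6 in PM10, 80.6 in control), Cct6a (75.8, 100.3 and 68.7 FPKM), Cct7 (97.7, 131 and 68.4 FPKM) and Cct8 (80.4, 109.8 and 59.7 FPKM). Cct3 had 75.2 FPKM in OVA+PM10, 74.2 FPKM in PM10 and 55.5 FPKM in control. All 7 ratios lay between 0.41 and 1.17 for PM10 against control (median 0.87) and between 0.14 and 0.59 for OVA+PM10 against control (median 0.42). All 7 lay above the median gene in both comparisons, also with equal sums, under which however every ratio was below 0 (medians -0.36 for PM10 and -0.21 for OVA+PM10). With the length trend removed the medians were 0.64 and 0.25. Tcp1, the alpha subunit of TRiC, whose symbol the naming rule does not catch, departed from the others with 84.5 FPKM in OVA+PM10, 52.4 FPKM in PM10 and 53.1 FPKM in control.

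Against control, the lowest ratios of all members were those of small heat shock genes. Hspb6 (HSP20), abundant in smooth and striated muscle, had 5.55 FPKM in OVA+PM10 and 1.64 FPKM in PM10, against 49.1 FPKM in control. Hspb7, a heart and muscle protein, had 4.93 FPKM in OVA+PM10 and 1.17 FPKM in PM10, against 15.3 FPKM in control. Hspb3, of striated muscle, had 0.208 FPKM in OVA+PM10, was listed at 0 in PM10 and had 2.60 FPKM in control, which correspond to about 2.45, 0 and 39.6 reads, and no ratio to PM10 is given. Control was the highest library for all 3, and Hspb6 reached log2 ratios of -2.94 for OVA+PM10 and -4.25 for PM10, Hspb7 of -1.46 and -2.91. Hspb6 and Hspb7 were also at least 2-fold higher in OVA+PM10 than in PM10 (1.31 and 1.45).

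Hspb8 (HSP22), partner of Bag3 in the autophagy of damaged muscle proteins, had 11.4 FPKM in OVA+PM10 and 19.8 FPKM in PM10, against 36.6 FPKM in control. Hspb1, which protects actin filaments and is strong in muscle and squamous epithelium, had 122 FPKM in OVA+PM10 and 169 FPKM in PM10, against 273 FPKM in control. For both, OVA+PM10 was the lowest library, with ratios to control of -1.60 and -1.16, and PM10 came to -0.86 and -0.68. Without the length trend the PM10 ratios were -1.33 and -1.81, at least 2-fold lower. Hspb2, a muscle gene, had 12.1 FPKM in OVA+PM10, 20.8 FPKM in PM10 and 11.6 FPKM in control, but shares 252 exonic bases on the opposite strand with its neighbour Cryab, the αB-crystallin gene (101 FPKM in OVA+PM10, 308 FPKM in PM10 and 277 FPKM in control).

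In all, 5 of the 6 muscle-linked genes (Hspb1, Hspb2, Hspb3, Hspb6, Hspb7 and Hspb8) were at least 2-fold lower in OVA+PM10 than in control, and 3 were so in PM10, beside 8.51% and 13.5% of all genes. Cryab, whose symbol the naming rule does not catch, is not among these 6. Its ratios to control were -1.45 for OVA+PM10 and 0.15 for PM10. Without these 6, 1 of 67 members was lower in OVA+PM10 and 0 in PM10. These counts follow from which genes were set aside and are not a separate result. Skeletal muscle markers, given above, were lower in both exposed libraries for 9 of 9 genes. Cardiac markers, which lung veins also express, summed to 377 FPKM in OVA+PM10, 188 in PM10 and 939 in control, with 4 and 7 of 9 genes at least 2-fold lower in OVA+PM10 and PM10 than in control. The control sum was led by Myl3 (3.79 FPKM in OVA+PM10, 301 in control) and Sln (14.0 and 203 FPKM). Myl7 (117 and 127 FPKM), Myl4 (81.1 and 93.7 FPKM) and Tnnt2 (60.6 and 65.8 FPKM) were nearly level in these libraries. Actc1 (60.4 and 48.4 FPKM) was higher in OVA+PM10. Smooth muscle markers summed to 781 FPKM in OVA+PM10, 283 in PM10 and 563 in control, and 4 of 6 were at least 2-fold higher in OVA+PM10 than in PM10. The part of these tissues in the small heat shock values was not tested. Hspb11 (IFT25), a carrier protein of ciliary transport that resembles small heat shock proteins, took the other direction, with 32.3 FPKM in OVA+PM10 and 46.2 FPKM in PM10, against 15.6 FPKM in control.

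**Figure D3:**
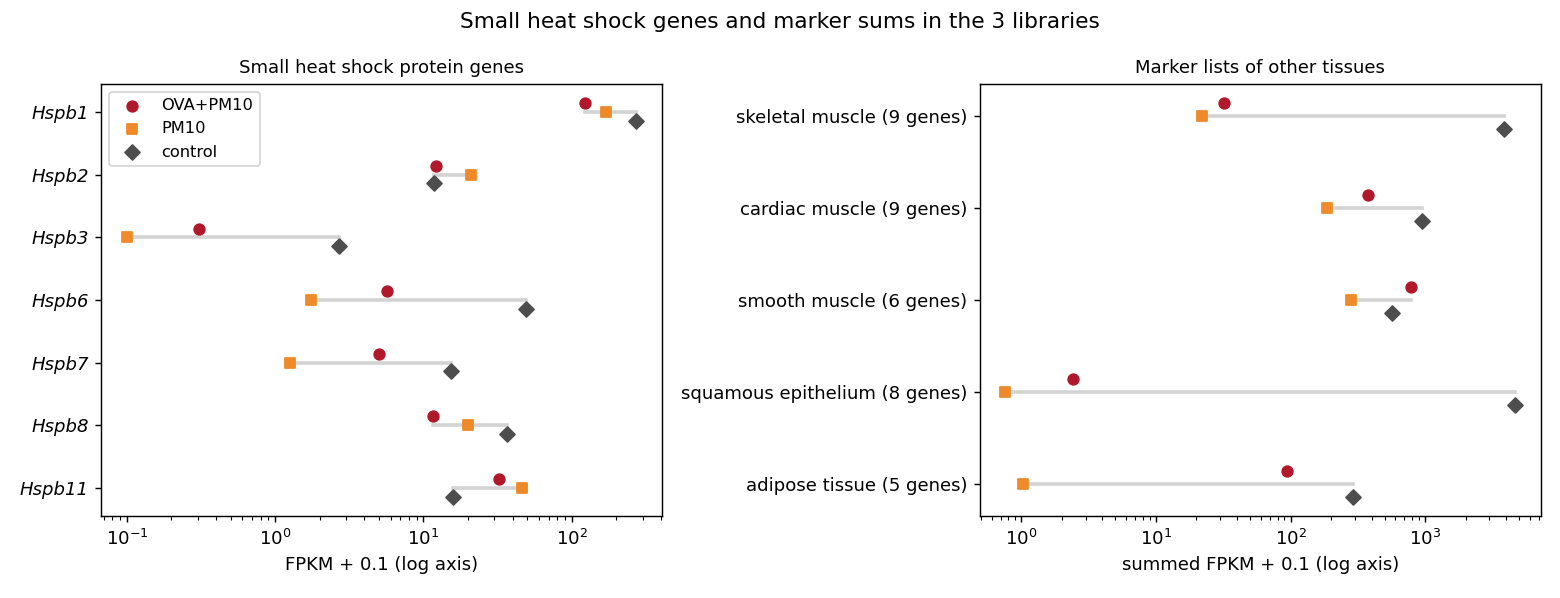
Left, FPKM + 0.1 (log axis) of the 7 small heat shock genes in the OVA+PM10, PM10 and control libraries; right, summed FPKM + 0.1 of marker lists of other tissues in the same libraries. Control is rightmost for Hspb1, Hspb3, Hspb6, Hspb7 and Hspb8 and for skeletal muscle, cardiac muscle, squamous and adipose markers; Hspb11 has its lowest value there.

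The J-proteins formed the largest group, with 36 members. At least 2-fold higher than in control were 3 of them in OVA+PM10 and 5 in PM10, and 0 were lower in either, with medians of 0.03 and 0.17. Of all genes, 9.76% and 13.2% were higher, and 8.51% and 13.5% lower, in these comparisons. Between OVA+PM10 and PM10, 1 was higher and 0 were lower, beside 11.3% and 8.62% of all genes. With equal sums the medians of the first 2 comparisons were -0.59 and -0.92, close to the shifted medians of all genes (-0.57 and -1.02).

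Among the mitochondrial J-proteins, Dnajc15, a partner of mortalin at the inner membrane that also restrains the respiratory chain, had 97.6 FPKM in OVA+PM10 and 134 FPKM in PM10, against 39.3 FPKM in control. Dnajc19 (TIM14), of the import motor, had 58.0 FPKM in OVA+PM10 and 104.6 FPKM in PM10, against 30.8 FPKM in control. Control was lowest for both, with PM10 ratios of 1.75 and 1.73, which stayed above 2-fold without the length trend (2.29 and 1.55). The adjustment of Dnajc15 rests on a longest annotated transcript of 6193 bases. If a shorter transcript was expressed, the adjusted ratio would be lower. Dnajc30, linked in humans to repair of respiratory complex I, had 18.0 FPKM in OVA+PM10, 25.1 FPKM in PM10 and 17.6 FPKM in control. Dnajc11, of the inner membrane organising system, was level at 11.9, 13.6 and 11.9 FPKM in the same order, as was Dnaja3 (TID1) at 17.1, 18.2 and 17.3 FPKM. All 8 members named at the start as mitochondrial had a higher value in PM10 than in OVA+PM10, by 0.08 to 1.35 on the log2 scale. With equal sums, 5 of the 8 had a higher value in OVA+PM10. PM10 was also the higher of these libraries for most members, since 27 of the 73 were higher in OVA+PM10 than in PM10. This grouping by compartment was made after the values had been seen.

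Dnajb13, a component of sperm flagella and of the spokes of motile cilia, had the highest OVA+PM10 against control ratio of all members, 2.12. It had 24.3 FPKM in OVA+PM10 and 15.0 FPKM in PM10, against 4.83 FPKM in control. Of 7 ciliated cell markers, 6 were at least 2-fold higher in OVA+PM10 than in control, and 2 in PM10. Foxj1, the master regulator of motile cilia, had 70.6 FPKM in OVA+PM10, 16.5 FPKM in PM10 and 13.6 FPKM in control, whereas Tppp3 was level at 416, 419 and 396 FPKM. Dnajb13 shares 305 exonic bases on the opposite strand with Ucp2 (535 FPKM in OVA+PM10, 169 in PM10 and 457 in control). OVA+PM10 was the highest library for both, while the lowest was PM10 for Ucp2 and control for Dnajb13. The part of this overlap in the Dnajb13 value was not tested. The part of ciliated cells in the Dnajb13 and Hspb11 values was not tested.

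The general HSP70 partners of classes A and B spanned a narrower range. Dnaja1, a main cytosolic partner of HSC70, had 50.9 FPKM in OVA+PM10 and 89.3 FPKM in PM10, against 39.5 FPKM in control (PM10 ratio 1.16), and shares 608 exonic bases on the opposite strand with Smu1. Dnaja2, its paralogue, was nearly level at 33.2 FPKM in OVA+PM10, 40.5 FPKM in PM10 and 37.0 FPKM in control. Dnaja4 had 24.9 FPKM in OVA+PM10, 18.3 FPKM in PM10 and 21.9 FPKM in control. It shares 1581 exonic bases on the opposite strand with Wdr61 (41.7 FPKM in OVA+PM10, 57.9 in PM10 and 27.3 in control). Neither Dnaja2 nor Dnaja4 departed from the control value by 2-fold.

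Dnajb1, the classical inducible HSP40, had 26.8 FPKM in OVA+PM10 and 29.2 FPKM in PM10, against 21.7 FPKM in control, which gives ratios of 0.29 and 0.41. It thus did not show the order of Hspa1a and Hspa1b. Dnajb6, which suppresses aggregation of polyglutamine proteins and whose promoter holds a 3-unit motif, had 73.2 FPKM in OVA+PM10 and 109.9 FPKM in PM10, against 58.8 FPKM in control. Dnajb2, which hands clients to the proteasome, had 26.7 FPKM in OVA+PM10, 49.4 FPKM in PM10 and 28.2 FPKM in control, so that PM10 alone was high (0.79). Dnajb4 had 19.6 FPKM in OVA+PM10, 22.6 FPKM in PM10 and 25.4 FPKM in control. Dnajb12, of the endoplasmic reticulum membrane, was lowest in PM10 with 6.94 FPKM, beside 12.3 FPKM in OVA+PM10 and 13.1 FPKM in control.

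Class C holds J-proteins with specialised tasks. Dnajc2, the ribosome-bound partner of Hspa14, had 29.4 FPKM in OVA+PM10 and 37.7 FPKM in PM10, against 18.3 FPKM in control, just past 2-fold for PM10 (1.01). Dnajc4 had 35.3 FPKM in OVA+PM10, 21.2 FPKM in PM10 and 15.5 FPKM in control, past 2-fold for OVA+PM10 (1.13, or 0.63 without the length trend). Dnajc25 had 9.08 FPKM in OVA+PM10, 3.61 FPKM in PM10 and 4.70 FPKM in control and was the single J-protein gene at least 2-fold different between the exposed libraries (1.13).

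The other class C genes with at least 10 FPKM stayed within 2-fold in every comparison. Dnajc7, which carries clients between HSP70 and HSP90, had 40.5 FPKM in OVA+PM10, 56.1 FPKM in PM10 and 36.0 FPKM in control. Dnajc8, associated with splicing, had 98.6 FPKM in OVA+PM10, 160.4 FPKM in PM10 and 109.9 FPKM in control, and Dnajc9, a histone chaperone, had 19.8, 25.2 and 16.2 FPKM in the same order. PM10 was the highest library for these 3, as it was for Dnajc24, of diphthamide synthesis (10.2, 14.4 and 7.93 FPKM), and for Dnajc17 (9.85, 13.2 and 11.6 FPKM). Dnajc10, a disulphide reductase of the endoplasmic reticulum (35.9, 34.3 and 37.6 FPKM), and Dnajc21, of ribosome biogenesis (15.7, 15.7 and 15.3 FPKM), were almost level. Dnajc5, the cysteine string protein of secretory vesicles (18.5, 17.2 and 23.4 FPKM), and Dnajc14 (15.7, 12.4 and 19.8 FPKM) were highest in control, and Dnajc14 shares 1114 exonic bases on the opposite strand with Ormdl2.

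BAG proteins bind the HSP70 ATPase domain and promote exchange of nucleotide. Bag1, which also couples HSP70 to the proteasome, had 217 FPKM in OVA+PM10 and 403 FPKM in PM10, against 150.3 FPKM in control. It was the single BAG gene past 2-fold, with 1.42 for PM10 against control, or 0.69 without the length trend (its longest transcript has 1348 bases). Bag3, the HSF1-inducible partner of Hspb8 in selective autophagy, had 11.4 FPKM in OVA+PM10, 20.2 FPKM in PM10 and 17.2 FPKM in control, and amounted to 5.26%, 5.00% and 11.4% of Bag1 in these libraries. Bag5, which has several BAG domains, had 19.0 FPKM in OVA+PM10, 25.4 FPKM in PM10 and 23.7 FPKM in control. Bag6, which delivers tail-anchored proteins to the membrane and defective ones to degradation, was lowest in PM10 with 16.1 FPKM, beside 28.1 FPKM in OVA+PM10 and 27.7 FPKM in control.

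**Figure D4:**
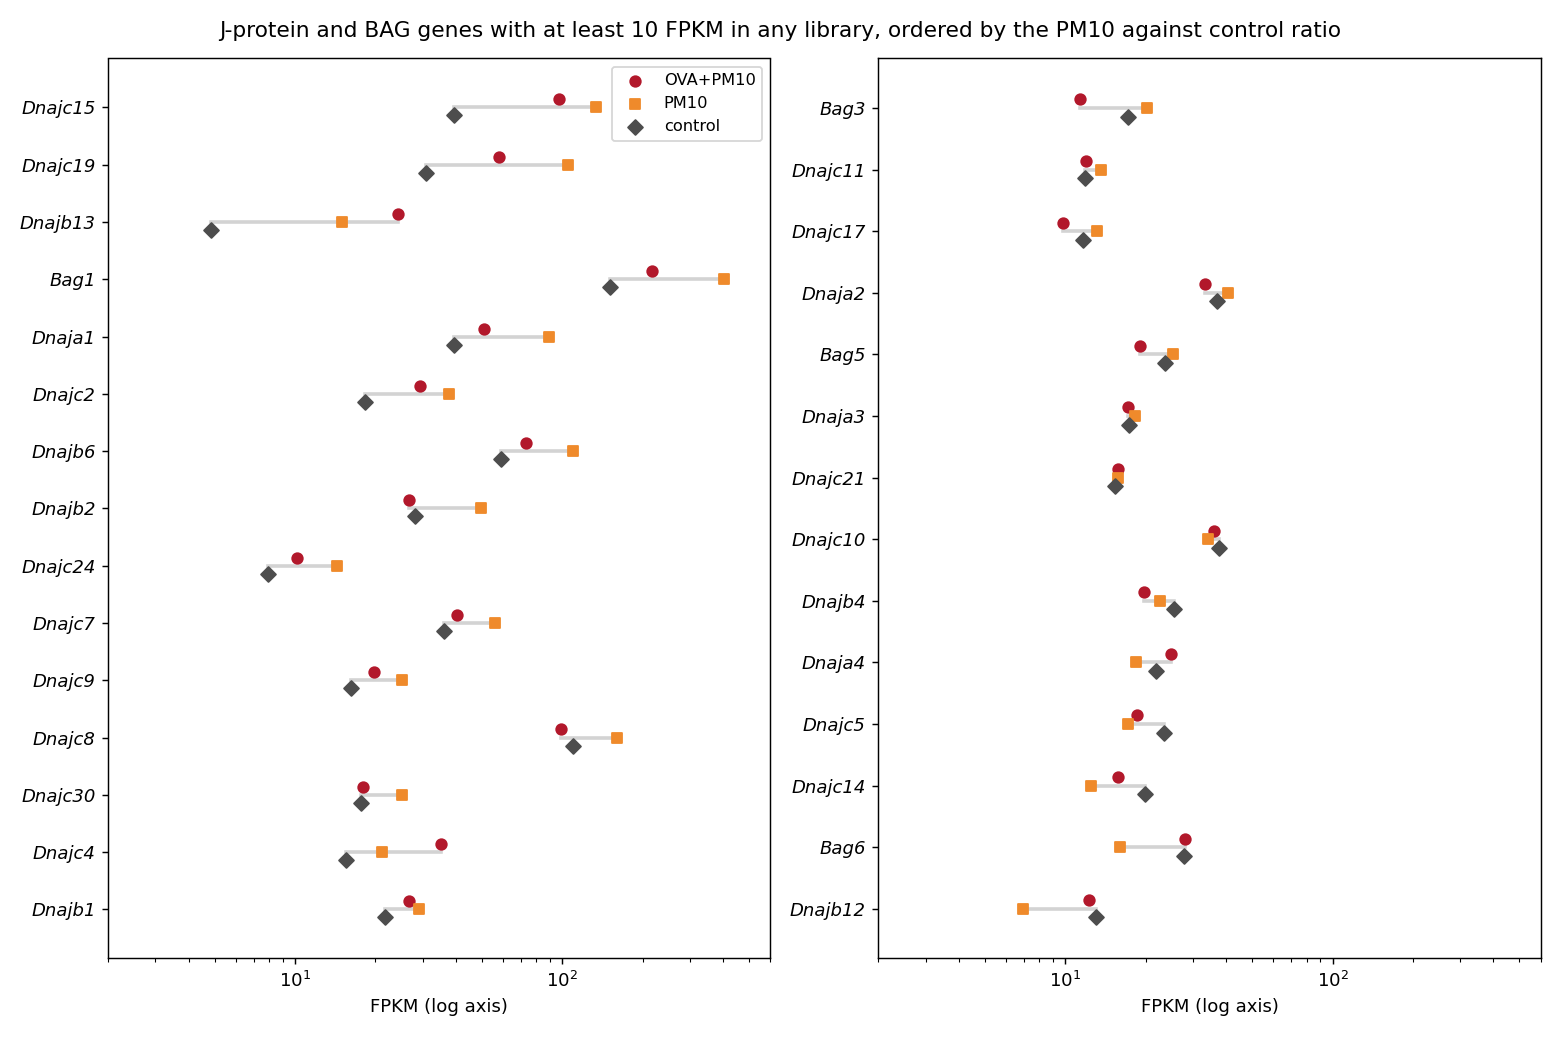
FPKM (log axis) of the J-protein and BAG genes with at least 10 FPKM in any library, ordered from the highest to the lowest PM10 against control ratio; symbols are the OVA+PM10, PM10 and control libraries and grey lines span the 3 values. Dnajc15, Dnajc19, Dnajb13 and Bag1 show the widest spans at the top, and most genes in the right panel stay within 2-fold.

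Besides Hspa1l, Dnajb3 and Hspa12a, named above, the members below 10 FPKM whose ratios of (FPKM + 1) stayed within 2-fold were Bag2, Bag4, Dnajb5, Dnajb14, Dnajc1, Dnajc12, Dnajc13, Dnajc16, Dnajc18, Dnajc27 and Dnajc28. Together these 14 had highest values between 1.016 and 9.46 FPKM and log2 ratios between -0.95 and 1.00 over all comparisons. Dnajc13, an endosomal J-protein with a transcript of 8012 bases, had 8.68 FPKM in OVA+PM10, 4.27 FPKM in PM10 and 8.83 FPKM in control. Without the added 1 FPKM, PM10 was thus more than 2-fold lower than the other libraries. The same held for other low members, such as Dnajc16 (4.805 FPKM in OVA+PM10, 1.906 in PM10) and Dnajc27 (0.767 FPKM in OVA+PM10, 2.415 in control), which differ by more than 2-fold in FPKM alone.

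Transcript length went along with the PM10 against control ratio in all genes and less so in the members. Spearman's coefficient between length and ratio was -0.48 across 13637 genes and -0.25 across the 73 members, which share the same 2 libraries, and for OVA+PM10 against control it was -0.35 and -0.08. The members' median longest transcript was 2919 bases, against 3223 bases in all genes. With the trend removed, 9 members were at least 2-fold higher in PM10 than in control and 6 lower, beside 7.68% and 10.8% of all genes, and the members' median was 0.11. For OVA+PM10 against control, 5 were then higher and 6 lower, beside 7.55% and 8.1% of all genes. For OVA+PM10 against PM10, 8 were higher and 1 lower, beside 11.2% and 6.64%. Hspa8, Hsp90aa1, Hspe1, Dnaja1, Dnajb13, Dnajc2, Dnajc15 and Dnajc19 stayed at least 2-fold higher in PM10, whereas Bag1, Cct4, Cct5 and Hspb11 did not, and Hsph1 passed. The authors' transcript lengths are not known, and the longest annotated transcript can be longer than the one expressed.

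**Figure D5:**
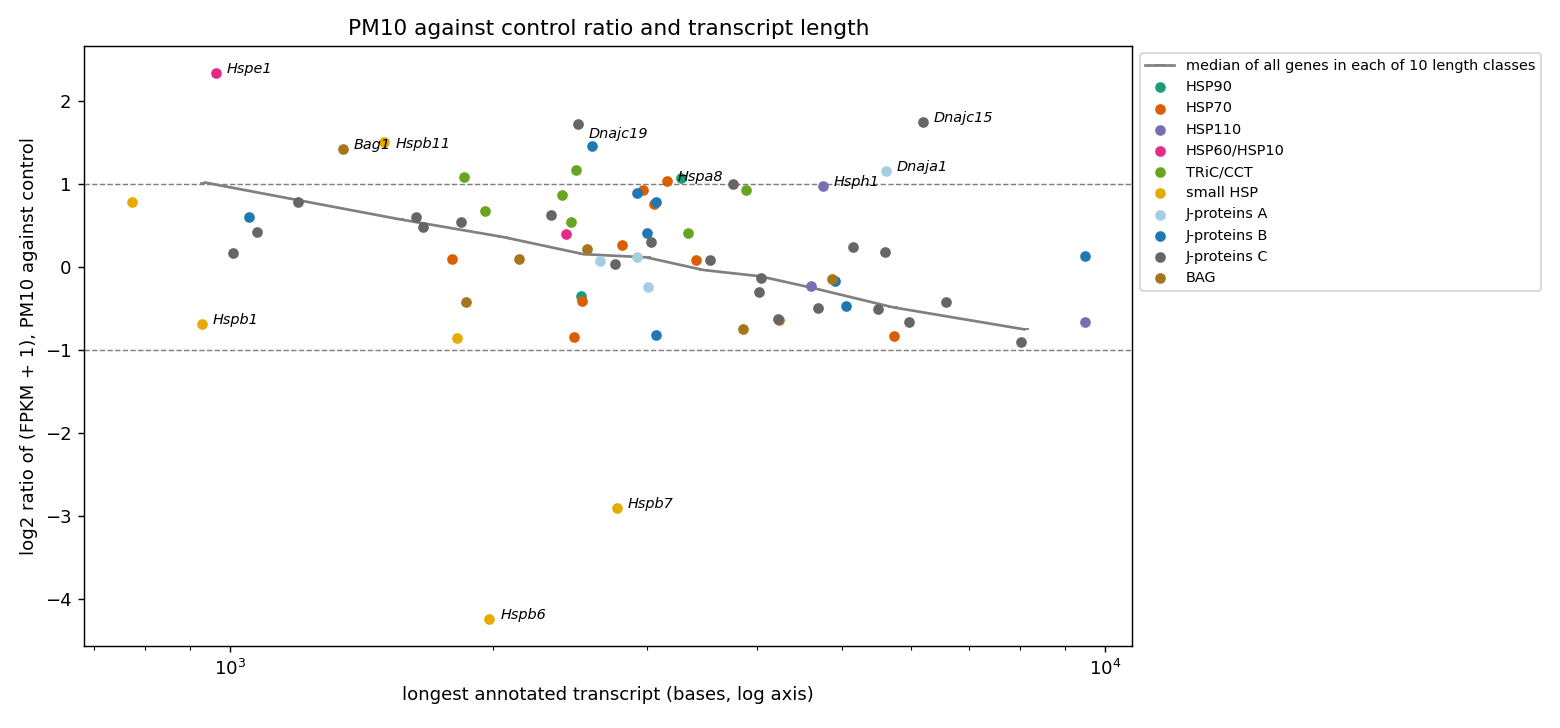
Log2 ratio of (FPKM + 1) for PM10 against control against the length of the longest annotated transcript (log axis) for 72 members, coloured by family; the grey line joins the medians of all genes in 10 length classes and dashed lines mark 2-fold. The grey line falls from 1.02 in the shortest to -0.75 in the longest class, and Dnajc15, Dnaja1 and Dnajc19 lie well above it; Hspb3, listed at 0 in PM10, is not plotted.

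A list of 46 further genes of the pathway, comprising HSP90 co-chaperones, prefoldin, regulators and mitochondrial proteases, was read beside the members. At least 2-fold higher than in control were 1 of 46 in OVA+PM10 and 12 in PM10, and 2 and 0 were lower, with medians of 0.14 and 0.52. All genes had 9.76% higher and 8.51% lower in OVA+PM10, and 13.2% and 13.5% in PM10. Without the length trend the PM10 count was 6 higher and 0 lower, beside 7.68% and 10.8% of all genes. Between OVA+PM10 and PM10, 0 were higher and 7 lower (median -0.29), beside 11.3% and 8.62% of all genes, and 7 were also lower without the length trend. Hsf1, the regulator itself, was nearly level at 13.9 FPKM in OVA+PM10, 11.04 FPKM in PM10 and 13.7 FPKM in control. Of the HSP90 co-chaperones, Ahsa1, an activator of its ATPase, had 80.9 FPKM in OVA+PM10, 79.2 FPKM in PM10 and 58.4 FPKM in control. Stip1 (HOP), which joins HSP70 to HSP90, had 62.6, 52.9 and 45.9 FPKM in the same order, and Cdc37, which recruits kinases, 88.3, 57.6 and 72.3 FPKM. Ptges3 (p23), which closes the HSP90 clamp, had 79.8 FPKM in OVA+PM10, 123 FPKM in PM10 and 71.0 FPKM in control. St13 (HIP) had 44.8, 47.2 and 54.3 FPKM and the ubiquitin ligase Stub1 (CHIP) 51.9, 65.5 and 44.6 FPKM in that order. These 6 stayed within 2-fold, but other genes of the list did not. Ahsa2, a relative of Ahsa1, had 7.57 FPKM in OVA+PM10 and 22.03 FPKM in PM10, against 8.31 FPKM in control, with a PM10 ratio of 1.31 (1.40 without the length trend) and a ratio of -1.43 between OVA+PM10 and PM10. Sugt1, an HSP90 partner in kinetochore assembly, had 41.3 FPKM in OVA+PM10 and 67.9 FPKM in PM10, against 30.2 FPKM in control, with a PM10 ratio of 1.14 (1.86 without the length trend). Hsp90b1 (GRP94), the HSP90 of the endoplasmic reticulum, had 419 FPKM in OVA+PM10 and 445 FPKM in PM10, against 206 FPKM in control, and was the gene past 2-fold in both.

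Prefoldin, which passes actin and tubulin to TRiC, was higher in PM10 than in control by at least 2-fold for 5 of 6 subunits. Pfdn5 had 610.3 FPKM in OVA+PM10 and 1727 FPKM in PM10, against 345 FPKM in control. Prefoldin transcripts are short, and without the length trend 1 of 6 subunits (Pfdn5, 1.36) was past 2-fold. Unc45b, the myosin chaperone of striated muscle, had 2.89 FPKM in OVA+PM10, 16.5 FPKM in PM10 and 13.9 FPKM in control, and together with Cryab it made up the 2 genes that were lower in OVA+PM10. Neither was lower in PM10 (ratios of 0.24 and 0.15), unlike the skeletal muscle markers.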

How the data were processed

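Total RNA of whole lung was extracted with Trizol and 1.3 µg per library was prepared with a strand-preserving kit, per the labels' protocols. The deposited values are FPKM computed by the authors, a unit inferred from the values since no header names it, and TopHat and the mouse build mm10 were used per the submitters' processing notes. Not given in the sources used here: counting program, annotation, use of strand and treatment of reads with several matches. Libraries were assigned to groups by their titles.

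Depth was estimated from the value of 1 read in single-transcript genes (66.2, 76.5 and 51.2 FPKM times bases in OVA+PM10, PM10 and control) and is approximate. For each comparison the log2 ratio of (FPKM + 1) was computed, and a gene counted as different at 2-fold or more among genes reaching 1 FPKM in any library. No count test was run, since 1 library per group leaves no replicate. The length trend was removed by subtracting a running median over 501 genes ordered by the longest GENCODE M21 transcript (GRCm38, the assembly mm10 names), available for 95.5% of genes and for all 73 members. Motifs were searched in RefSeq promoters, and coding sequences were taken as the longest open reading frame. Exonic overlaps used GENCODE M21. Values were given in full for members with at least 10 FPKM in any library or, below that, a 2-fold difference. Tcp1, Cryab, Unc45b and Pfdn5 came from the pathway list, of which 1 gene is not reported here by name. The members and lists were chosen with earlier results of these data known. Dnajb3, Hspa1l, Hspa12a, Dnajc13, Ahsa2, Sugt1 and Hsp90b1 were named after their values had been seen. Python 3.11.15, pandas 2.3.3 and numpy 2.4.6 were used, and the code was tested on simulated data.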

Additional observations from a re-analysis of the deposited data

How the results depend on the processing

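No paired analysis was possible because each group holds 1 library and the labels give no replicate numbers, and for the same reason no library could be left out. Scaling to equal summed FPKM changed most: 3 members were then higher and 12 lower in OVA+PM10 than in control (median -0.51, opposite in sign to the main value), 1 higher and 33 lower in PM10 than in control (median -0.97, opposite in sign), and 15 higher and 0 lower in OVA+PM10 than in PM10 (median 0.25, opposite in sign). These follow the shift of all genes. The PM10 against control ratio of Cct4 (-0.0617), Cct5 (-0.15), Dnaja1 (-0.0651), Dnajc2 (-0.19), Hsp90aa1 (-0.16) and Hspa8 (-0.20) changed sign with it. A threshold of 1.5-fold gave 13 higher and 10 lower members for OVA+PM10 against control, 25 and 14 for PM10 against control, and 15 and 15 for OVA+PM10 against PM10. Without the 6 muscle-linked small heat shock genes, 1 member was lower in OVA+PM10 than in control (median 0.17) and 0 in PM10. Both counts follow from which genes were set aside. A pseudocount of 0.25 gave 6 lower members in PM10 than in control, and one of 5 gave 2 higher in OVA+PM10 than in PM10. Without the length trend, 6 members were lower in PM10 than in control, and 1 was lower in OVA+PM10 than in PM10 (median -0.15). A minimum of 5 FPKM moved the PM10 against control median to 0.28. The other 57 of 81 recomputed counts and medians stayed within 1.5 times the main count or within 0.1 of the main median. No cause was tested. Members listed at few reads, such as Hspb3 and Hspa1l, are limited by depth.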
